A study of Mus musculus with 12 samples.

Results

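The comparison was of neonatal mouse cardiac fibroblasts that received the reprogramming retrovirus MGT together with a lentivirus carrying a non-targeting short hairpin (shNT), against the same kind of cells given MGT alone, both 3 days after transduction. Genes were included when the deposited CPM, reads of a gene per 1000000 reads of its library, reached at least 1 in at least 2 of the 4 libraries compared, which kept 12698 of the 23423 genes in the table. Of these, 84 reached that level in both shNT libraries and in neither MGT library, and 148 did so in both MGT libraries and in neither shNT library. Cspg5, at 0.998 and 0.9396 CPM with shNT and 0.807 and 1.18 with MGT alone, lay just outside the limit. G630090E17Rik, at 1.297 and 0.928 CPM with shNT and 0.933 and 1.001 with MGT alone, lay just inside it.

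The fibroblasts were taken at postnatal day 1.5 from the hearts of CD1 mice, an outbred stock, and had been purified with magnetic beads for the surface protein Thy1. Each of the day 3 groups had 2 libraries of polyadenylated RNA. The MGT + shNT wells received 50 µl of the pMXs-puro-MGT retrovirus and 50 µl of the shNT lentivirus, and the MGT wells received the 50 µl of retrovirus with no second virus. The cells with a Ptbp1 hairpin (MGT + shPtbp1) received 50 µl of each virus in the same way, and the control cells received 50 µl of a pMXs-puro control virus without the 3 factors. The retrovirus was packaged in platE cells, a mouse-tropic packaging line, and the lentivirus in 293T cells, a human embryonic kidney line. Lentiviral particles, the hairpin, the lentiviral vector's other contents and the added volume of virus preparation came together, so their effects cannot be told apart. No cell isolation or library batch is given for the groups, so a difference between isolations or batches cannot be told apart from the virus. Freshly sorted fibroblasts, with 2 libraries, are cited where they put a level in context. Nothing in the labels says whether the 2 libraries of a group came from separate cultures or animals, so the p-values measure the spread between these libraries, which may be technical.

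A non-targeting hairpin is a small hairpin RNA that is processed by the cell's own RNA interference machinery but matches no intended transcript, and it serves as the control for a hairpin with a target. MGT stands for the transcription factors Mef2c, Gata4 and Tbx5, which together push fibroblasts toward a cardiomyocyte-like state. Isolates of heart fibroblasts commonly hold other cells as well, above all resident macrophages, which are phagocytes that depend on the growth factor receptor Csf1r and whose genes are controlled by the transcription factor PU.1. Incoming viral nucleic acid is read by sensors such as Toll-like receptors and cGAS, which can switch on interferon and the genes that interferon induces.

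The largest decreases with shNT were in genes known from macrophages and other leukocytes, so the stretches upstream of the start of 3 of the 5 largest are shown here as the regulatory sequence nearest to these genes. They are the 3 whose start in RefSeq lies within 30 bases of the start in the GENCODE annotation. Each runs over the 250 bases before the RefSeq start, 5′ to 3′ on the gene's own strand, on GRCm38.p6. Capitals mark GAGGAA, a core bound by PU.1, or its reverse complement TTCCTC. Il21r, the interleukin 21 receptor, lies on the plus strand with the stretch at chr7:125603179-125603428. Stab1, the scavenger receptor stabilin 1, lies on the minus strand at chr14:31168642-31168891, and Mrc1, the mannose receptor of macrophages, on the plus strand at chr2:14229164-14229413.
Il21r: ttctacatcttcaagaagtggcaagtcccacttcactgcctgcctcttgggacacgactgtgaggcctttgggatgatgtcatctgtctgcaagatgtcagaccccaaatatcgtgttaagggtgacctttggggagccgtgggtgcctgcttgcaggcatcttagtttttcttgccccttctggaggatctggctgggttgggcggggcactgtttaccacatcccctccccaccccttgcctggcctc
Stab1: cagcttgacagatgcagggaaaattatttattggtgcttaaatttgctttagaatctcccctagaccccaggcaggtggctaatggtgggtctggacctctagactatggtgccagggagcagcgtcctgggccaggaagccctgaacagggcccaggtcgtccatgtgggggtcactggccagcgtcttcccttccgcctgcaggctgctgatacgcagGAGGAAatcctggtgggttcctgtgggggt
Mrc1: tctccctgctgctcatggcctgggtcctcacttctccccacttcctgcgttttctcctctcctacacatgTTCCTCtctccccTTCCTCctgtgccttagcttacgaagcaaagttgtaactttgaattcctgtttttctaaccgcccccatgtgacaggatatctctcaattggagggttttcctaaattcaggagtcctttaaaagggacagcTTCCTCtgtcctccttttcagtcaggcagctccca
The stretch of Il21r held 0 matches to GAGGAA or TTCCTC, that of Stab1 held 1 and that of Mrc1 held 3. Of the 15 named decreases, 8 held at least 1 match (53.3%), against 23.3% of all 32851 stretches of the same length in the RefSeq table, counting both strands. This count also took stretches whose RefSeq start lies further from the GENCODE start, such as Fcgr2b (476 bases) and Cd22 (1314 bases). Of the 32 genes at least 2-fold higher that had a stretch (86.5% of 37), 11 held a match (34.4%), also above the share over all stretches. The motif was chosen after the values had been seen, and the genes for their change, so no link to PU.1 is drawn from these shares. The same count over all genes tested here, over all those at least 2-fold lower and over the macrophage markers is void, because fewer than 80% of them had a stretch in the table (79.4%, 76.6% and 68.8%). A match is a run of letters, and no binding was measured.

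The labels were checked first. Ptbp1, the splicing regulator that the other hairpin targets, read 362 and 367 scaled CPM with shNT, against 366 and 382 with MGT alone, a difference of -0.04 ± 0.034 SE on the log2 scale (limma adjusted p = 0.423). It read 81.7 and 79.1 with shPtbp1. Ptbp2, the neuronal paralog whose transcript Ptbp1 represses, read 30.6 and 29.6 with shNT, 134 and 137 with shPtbp1 and 27.3 and 25.5 with MGT alone, and its small rise with shNT passed the test (log2 fold change 0.19 ± 0.049 SE, limma adjusted p = 0.00469), but not without the second MGT library (adjusted p = 0.0793). Of 16 fibroblast markers tested 7 rose, 1 fell and 8 did not pass, so that 50% were called, near the 47.4% of all genes. By direction 43.8% rose and 6.25% fell, beside 26.4% and 21% of all genes. Thy1, the marker used for the sort, read 569.7 and 598.3 scaled CPM with shNT, against 453 and 510.3 with MGT alone (log2 fold change 0.28 ± 0.059 SE, limma adjusted p = 7.19e-04), and Pdgfra, a fibroblast receptor, read 91.5 and 91.8 scaled CPM with shNT, against 91.9 and 94.3 with MGT alone without passing the test (adjusted p = 0.667). The 12 libraries of the study held between 49320858 and 94005212 assigned reads. The 4 compared here had 90214929 and 89398976 with shNT and 86789973 and 92946708 with MGT alone.

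For the comparison the CPM were divided by 1 factor per library (scaled CPM), and log2(scaled CPM + 0.5) was fitted with limma. A gene was called when its Benjamini-Hochberg adjusted p was below 0.05, and every fold given is on the scale with 0.5 added, which understates changes of low genes. The pooled SD between the replicates of a group was 0.0866 log2 units with shNT and 0.0861 with MGT alone. With shNT 6018 of the 12698 genes were called (47.4%), of which 3354 were higher (26.4%) and 2664 lower (21%), and 6823 had an unadjusted p below 0.05. The replicates of the 2 groups did not overlap in 9507 genes (74.9%). Most of these differences were small and the median change over all genes was 0.03 log2 units. At least 2-fold differences were uneven between the directions, with 441 genes called and at least 2-fold lower (3.47%) and 37 called and at least 2-fold higher (0.291%).

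The 441 genes that were at least 2-fold lower held 11816 and 11782 scaled CPM in sum with shNT and 32753 and 32128 with MGT alone. They held 14104 and 14028 in the MGT + shPtbp1 libraries, which had also received a lentivirus, and 30179 and 29501 in the control vector libraries, which had not. The 2 groups with a lentivirus were thus low and the 2 groups without one high, with no overlap. The 37 genes at least 2-fold higher held 1115 and 1069 scaled CPM with shNT, 964 and 975 with shPtbp1, 465 and 488 with MGT alone and 510 and 549.7 in control. These sums describe genes picked for their change between shNT and MGT alone, so only the values in the other 2 groups add to it.

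**Figure D1:**
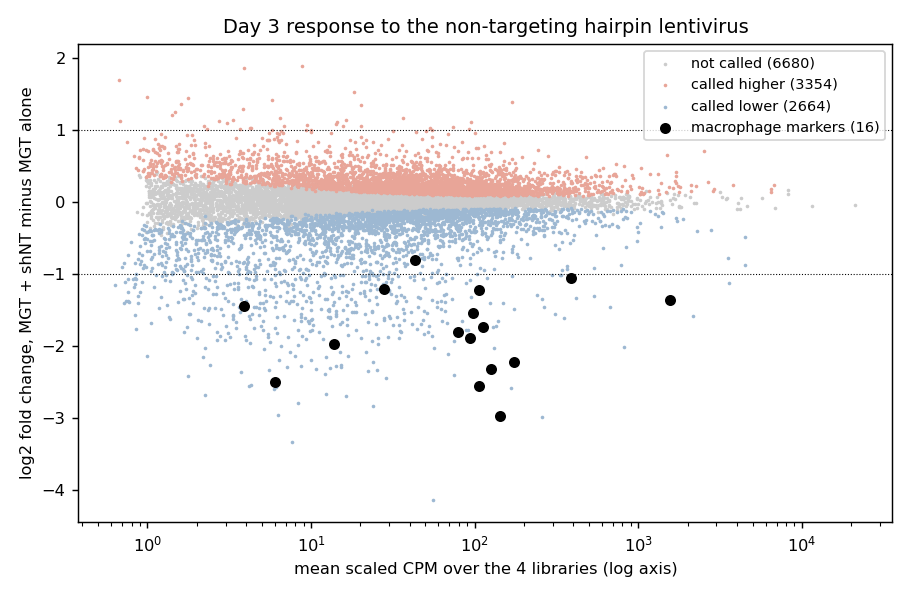
Log2 fold change of each gene, MGT + shNT minus MGT alone (vertical axis), against its mean scaled CPM over the 4 libraries (horizontal log axis); red points were called higher (3354), blue points called lower (2664), grey points not called (6680), and black points are the 16 macrophage markers. The dotted lines mark 2-fold, and many more points lie below the lower line than above the upper one, with all 16 black points below 0.

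Macrophage genes fell with shNT. Of all genes 21% were called lower, and 3.47% were called and at least 2-fold lower. All 16 of 16 macrophage markers were called lower and 15 of them by at least 2-fold, with a median change of -1.77 log2 units against 0.03 over all genes. The smallest fall was in Ptprc, the CD45 phosphatase of all blood leukocytes, and the largest in Mrc1. Summed over the 16 markers the level was 1557 and 1609.7 scaled CPM with shNT and 4628 and 4493 with MGT alone. Adgre1, which encodes F4/80, is in the table under its older name Emr1. None of the 16 markers was at 0 in any of the 4 libraries. In bulk RNA, fewer cells of a type and less RNA per cell cannot be told apart, so neither is read from these values.

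Mrc1, the mannose receptor whose upstream stretch is printed above, read 32.03 and 32.03 scaled CPM with shNT, against 257 and 251 with MGT alone, a 7.82-fold lower level (log2 fold change -2.97 ± 0.04 SE, limma adjusted p = 5.38e-20). C1qa, C1qb and C1qc encode the 3 chains of complement C1q, which macrophages make. C1qb read 29.8 and 31.4 scaled CPM with shNT, against 181 and 185 with MGT alone (log2 fold change -2.56 ± 0.039 SE, limma adjusted p = 2.79e-19). C1qc read 41.5 and 41.3 scaled CPM with shNT, against 216 and 204 with MGT alone (log2 fold change -2.33 ± 0.042 SE, limma adjusted p = 1.65e-18). For each of them the 2 shNT libraries lay far below the 2 MGT libraries. Csf1r, the receptor for the growth factors that keep macrophages alive, read 52.9 and 50.002 scaled CPM with shNT, against 174 and 171 with MGT alone (log2 fold change -1.74 ± 0.045 SE, limma adjusted p = 3.51e-16). Cx3cr1, the receptor for fractalkine, read 1.77 and 1.18 scaled CPM with shNT, against 10.97 and 10.2 with MGT alone (log2 fold change -2.51 ± 0.12 SE, limma adjusted p = 1.52e-12). The pan-leukocyte Ptprc read 32.5 and 30.4 scaled CPM with shNT, against 54.4 and 56.3 with MGT alone (log2 fold change -0.81 ± 0.047 SE, limma adjusted p = 4.54e-11). Cd68, a lysosomal glycoprotein abundant in macrophages, read 243 and 260.2 scaled CPM with shNT, against 511 and 539 with MGT alone (log2 fold change -1.06 ± 0.042 SE, limma adjusted p = 1.81e-13). The falls were thus of unequal size within the list, from 1.75-fold to 7.82-fold. The shNT and MGT libraries did not overlap for any of the markers described, as they did not for 74.9% of all genes.

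**Figure D2:**
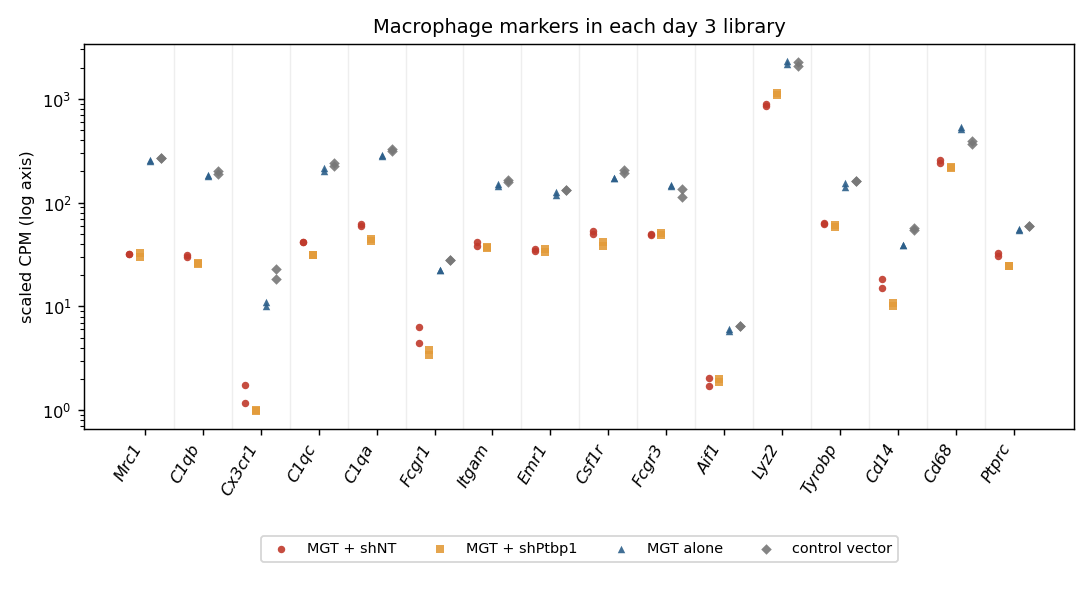
Scaled CPM (vertical log axis) of the 16 macrophage markers (horizontal axis, ordered by their change with shNT) in each day 3 library, 1 point per library, with circles for MGT + shNT, squares for MGT + shPtbp1, triangles for MGT alone and diamonds for control vector. For every marker the circles and squares lie below the triangles and diamonds; Mrc1, for example, was at 32.03 and 32.03 with shNT, 32.9 and 30.01 with shPtbp1, 257 and 251 with MGT alone and 271 and 268 in control.

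The largest decreases beyond the marker list were also in genes known from macrophages and other leukocytes. Fcgr2b, the inhibitory receptor for immunoglobulin G, read 5.47 and 5.53 scaled CPM with shNT, against 109 and 102 with MGT alone, a 17.7-fold lower level (log2 fold change -4.14 ± 0.067 SE, limma adjusted p = 3.57e-19). Il21r read 0.998 and 0.946 scaled CPM with shNT, against 14.01 and 14.6 with MGT alone, a 10.1-fold lower level (log2 fold change -3.33 ± 0.12 SE, limma adjusted p = 3.11e-14). Stab1 read 59.8 and 54.4 scaled CPM with shNT, against 461 and 449 with MGT alone, a 7.91-fold lower level (log2 fold change -2.98 ± 0.047 SE, limma adjusted p = 2.79e-19). The rule that named these genes selects large falls without overlap of the replicates, so their separation is no further result. Cd22, a sialic acid-binding receptor best known from B cells, fell 7.77-fold to 0.998 and 1.096 with shNT, against 11.5 and 11.6 with MGT alone. Then came Ms4a6c, a membrane protein of the MS4A family (-2.84 log2 units), the Fc receptor-like Fcrls (-2.79), the thromboxane synthase Tbxas1 (-2.70), the protein kinase C isoform Prkcb (-2.66), the secreted scavenger protein Cd5l (-2.60), the chemokine Ccl6 (-2.58), the ADP receptor P2ry13 (-2.57) and the collagenase Mmp8 (-2.44), all called. Ccl6 read 49.8 and 45.1 scaled CPM with shNT, against 301 and 272 with MGT alone, and in this case the 2 shPtbp1 libraries, at 82.9 and 77.2, lay between the shNT and the MGT libraries.

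Outside the naming rule, and chosen after their values had been seen, are 4 transcription factors of the macrophage lineage. Sfpi1, which encodes PU.1, read 16.7 and 16.97 scaled CPM with shNT, against 40.7 and 40.4 with MGT alone (log2 fold change -1.24 ± 0.054 SE, limma adjusted p = 5.83e-13). Irf8, which works with PU.1 in myeloid cells, changed by -1.26, Maf by -1.71 and the lymphoid and myeloid factor Ikzf1 by -1.38 log2 units, all called. Chosen in the same way, the lipid carrier Apoe read 308 and 336 scaled CPM with shNT, against 1289 and 1317 with MGT alone, and the microglial and macrophage receptor Trem2 read 39.9 and 37.9 scaled CPM with shNT, against 97.7 and 92.9 with MGT alone. Their changes of -2.02 and -1.28 log2 units passed the test.

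The libraries from wells with shPtbp1 showed the macrophage markers low as well. The comparison of MGT + shPtbp1 against control vector shares no library with that of shNT against MGT alone, but it also holds the 3 factors and the Ptbp1 hairpin. In it 16 of 16 macrophage markers were called lower, with a median of -2.22 log2 units, beside 29.3% of all genes called lower. Their summed level was 1712 and 1761 scaled CPM with shPtbp1 and 4629 and 4381 in control vector. Freshly sorted fibroblasts, which had never been in culture, held 1414 and 1404. Single markers took other orders there. Cx3cr1 read 1.77 and 1.18 with shNT and 78.2 and 76.3 in the fresh cells, higher than in any day 3 library, whereas Lyz2, lysozyme, read 850.1 and 894 with shNT and 162 and 158 in the fresh cells. Of the 10 lymphocyte markers 9 were below the limit on low values, with Cd3e and Cd3d of T cells listed at 0 in all 4 libraries compared. The 1 that passed, Cd4, read 0.894 and 0.911 scaled CPM with shNT, against 7.39 and 8.03 with MGT alone (log2 fold change -2.55 ± 0.12 SE, limma adjusted p = 1.77e-12).

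Of the 441 genes at least 2-fold lower with shNT, 426 (96.6%) were also lower with shPtbp1 than in control, 418 of them with an adjusted p below 0.05 there, and their median in that comparison was -1.47 log2 units beside -1.41 here. Over all 12698 genes the sign was shared by 65.7%. The 37 genes at least 2-fold higher shared their sign in 23 cases (62.2%), with 22 of these called, and 11 were called in the opposite direction. Of all genes called with shNT, 73.6% of the higher and 74.5% of the lower ones had the same sign there. In that comparison 7874 genes (62%) were called. The 15 genes of the 441 that were not lower with shPtbp1 than in control included the muscle genes Mb, Mybph and Myh2, the growth factor binding protein Igfbp5 and the angiopoietin Angpt1. They were named after their values had been seen.

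**Figure D3:**
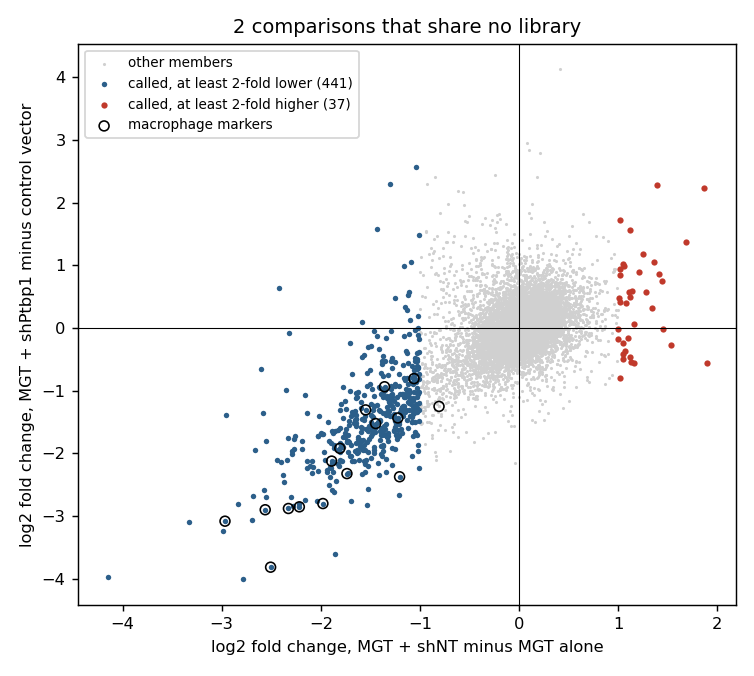
Log2 fold change of each gene with MGT + shPtbp1 minus control vector (vertical axis) against that with MGT + shNT minus MGT alone (horizontal axis), 2 comparisons that share no library; blue points are the 441 genes called and at least 2-fold lower with shNT, red points the 37 at least 2-fold higher, and open circles the 16 macrophage markers. The blue points lie below 0 on the vertical axis in 426 cases, whereas 23 of the 37 red points lie above it.

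Chemokines and cytokines were mostly lower with shNT. Of 21 tested genes 13 were called lower (61.9%), 10 of them at least 2-fold, and 2 higher (9.52%), with a median of -0.60 log2 units. Of all genes 21% were lower and 26.4% higher. Ccl12, a chemokine that attracts leukocytes like the next 2, read 1.83 and 1.05 scaled CPM with shNT, against 6.64 and 6.15 with MGT alone. Ccl9 read 24.98 and 23.6 scaled CPM with shNT, against 82.4 and 80.7 with MGT alone. Ccl7 read 18.8 and 16.5 scaled CPM with shNT, against 56.2 and 56.1 with MGT alone. All 3 were called and were between 3.12-fold and 3.62-fold lower. Tnf, which encodes the inflammatory cytokine TNF, read 1.502 and 1.303 scaled CPM with shNT, against 5.91 and 5.18 with MGT alone (log2 fold change -1.67 ± 0.09 SE, limma adjusted p = 1.64e-11). The 2 that rose lie outside the naming rule. Csf1, the ligand of Csf1r, read 808 and 769.8 scaled CPM with shNT, against 590.1 and 628 with MGT alone. Il15, a cytokine for lymphocytes, read 3.796 and 3.91 scaled CPM with shNT, against 2.87 and 2.48 with MGT alone. Il6 (0.18 log2 units, adjusted p = 0.123) and Cxcl1 (0.12, adjusted p = 0.299), which fibroblasts also make, are outside that rule too and did not pass the test. A further 12 of the 33 listed genes were below the limit on low values. The macrophage markers moved with this list (all lower, sums of 1557 and 1609.7 with shNT against 4628 and 4493 with MGT alone, none at 0), and their part in it was not tested.

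The same holds for the lists of NF-kB and acute phase genes, antigen presentation, nucleic acid sensing and lysosomes, beside which the macrophage markers moved by the same values, and their part was not tested there either. For comparison with each list, 21% of all genes were lower and 26.4% higher. NF-kB and acute phase genes were lower in 11 of 19 (57.9%) and higher in 2 (10.5%), with a median of -0.17 log2 units. The protease inhibitor Serpina3n led them and read 6.85 and 6.76 scaled CPM with shNT, against 18.9 and 17.3 with MGT alone. The adhesion molecule Icam1 read 36.2 and 32.95 scaled CPM with shNT, against 58.6 and 56.4 with MGT alone, and both were called. Antigen presentation genes were lower in 11 of 19 and higher in 0, with 8 not called and a median of -0.19 log2 units, and 7 were lower without the first MGT library. The class I gene H2-D1 read 39.6 and 39.5 scaled CPM with shNT, against 78.9 and 77.5 with MGT alone (log2 fold change -0.97 ± 0.054 SE, limma adjusted p = 2.56e-11), and the immunoproteasome subunits Psmb9 and Psmb8 changed by -0.93 and -0.73 log2 units. Class I genes are close copies, so reads may be split among them. Lysosome and autophagy genes were lower in 11 of 22 (50%) and higher in 5 (22.7%). Atp6v0d2, a proton pump subunit of osteoclasts and macrophages, read 31.1 and 34.02 scaled CPM with shNT, against 91.01 and 93.9 with MGT alone and was called. The cathepsins Ctss and Ctsd changed by -0.93 and -0.88 log2 units.

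Nucleic acid sensing genes were lower in 12 of 22 (54.5%) and higher in 3 (13.6%), beside 21% and 26.4% of all genes. Tlr7, the endosomal receptor for single-stranded RNA, read 37.8 and 35.5 scaled CPM with shNT, against 79.8 and 81.6 with MGT alone (log2 fold change -1.13 ± 0.063 SE, limma adjusted p = 2.52e-11). Tlr9, the receptor for DNA, read 1.399 and 1.31 scaled CPM with shNT, against 3.27 and 3.59 with MGT alone. Unc93b1, the chaperone that carries both receptors to the endosome, read 38.7 and 37.5 scaled CPM with shNT, against 84.9 and 81.6 with MGT alone. All 3 were called. They fell by slightly more than 2-fold, and the groups did not overlap, as they did not for 74.9% of all genes. Zbp1, a sensor of Z-form nucleic acid, was lower too (-1.17 log2 units). Added after the values had been seen, the RNA sensors of all cell types Ddx58 (0.10 log2 units, adjusted p = 0.228), Ifih1 (0.11, adjusted p = 0.259) and the endosomal receptor Tlr3 (0.02, adjusted p = 0.823) did not pass the test.

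Few interferon-induced genes were higher with shNT. Of 54 such genes 3 were higher, 15 lower and 36 not called, with a median of -0.06 log2 units, against 26.4% higher and 21% lower among all genes. Mx1, an antiviral GTPase, read 1.69 and 0.842 scaled CPM with shNT, against 3.58 and 5.15 with MGT alone (log2 fold change -1.49 ± 0.23 SE, limma adjusted p = 3.89e-05). Oas3, which makes the messenger that activates RNase L, read 4.39 and 3.64 scaled CPM with shNT, against 10.2 and 10.3 with MGT alone. Trim30a read 16.01 and 14.3 scaled CPM with shNT, against 36.96 and 34.03 with MGT alone. All of these were called, and for each of them the shNT libraries lay below the MGT libraries. Over all genes the groups did not overlap in 74.9%. The 3 that rose were Ifi44 (0.58 log2 units), Irgm1 (0.44) and the tetherin gene Bst2 (0.32), of which Ifi44 and Irgm1 are outside the naming rule. Values of genes often used as readouts, chosen after they had been seen, overlapped between the groups. Isg15, a ubiquitin-like protein, read 55.8 and 51.6 scaled CPM with shNT, against 52.98 and 51.7 with MGT alone. Ifit1, which binds foreign RNA, read 67.7 and 52.9 scaled CPM with shNT, against 56.9 and 65.7 with MGT alone. Ifit3, its partner, read 61.6 and 49.6 scaled CPM with shNT, against 54.7 and 62.02 with MGT alone. Their adjusted p were 0.765, 0.869 and 0.605, and the SE of the difference was 0.08 to 0.13 log2 units. In the 2 libraries of fresh fibroblasts Isg15 was at 2.53 and 2.39, Ifit1 at 0.516 and 0.645 and Ifit3 at 2.33 and 2.34 scaled CPM. The levels at day 3 were above those of fresh cells with or without the lentivirus. Ifnb1 reached at most 0.0447 CPM in the 4 libraries, and Ifna2 and Ifna4 were listed at 0. Among 11 tested interferon receptor and signalling genes 5 fell (45.5%) and 3 rose (27.3%), beside 21% and 26.4% of all genes. Ifngr2, a chain of the interferon gamma receptor, read 96.8 and 101 scaled CPM with shNT, against 164 and 169.5 with MGT alone. Ifnar1, a chain of the type I interferon receptor, read 76.1 and 75.2 scaled CPM with shNT, against 114 and 118 with MGT alone. Both passed the test (limma adjusted p = 3.12e-11 and 9.52e-11). For Ifngr2 the shPtbp1 libraries, at 206 and 214, lay above both groups. The macrophage markers moved beside these genes as well, with the sums given above, and their part was not tested.

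**Figure D4:**
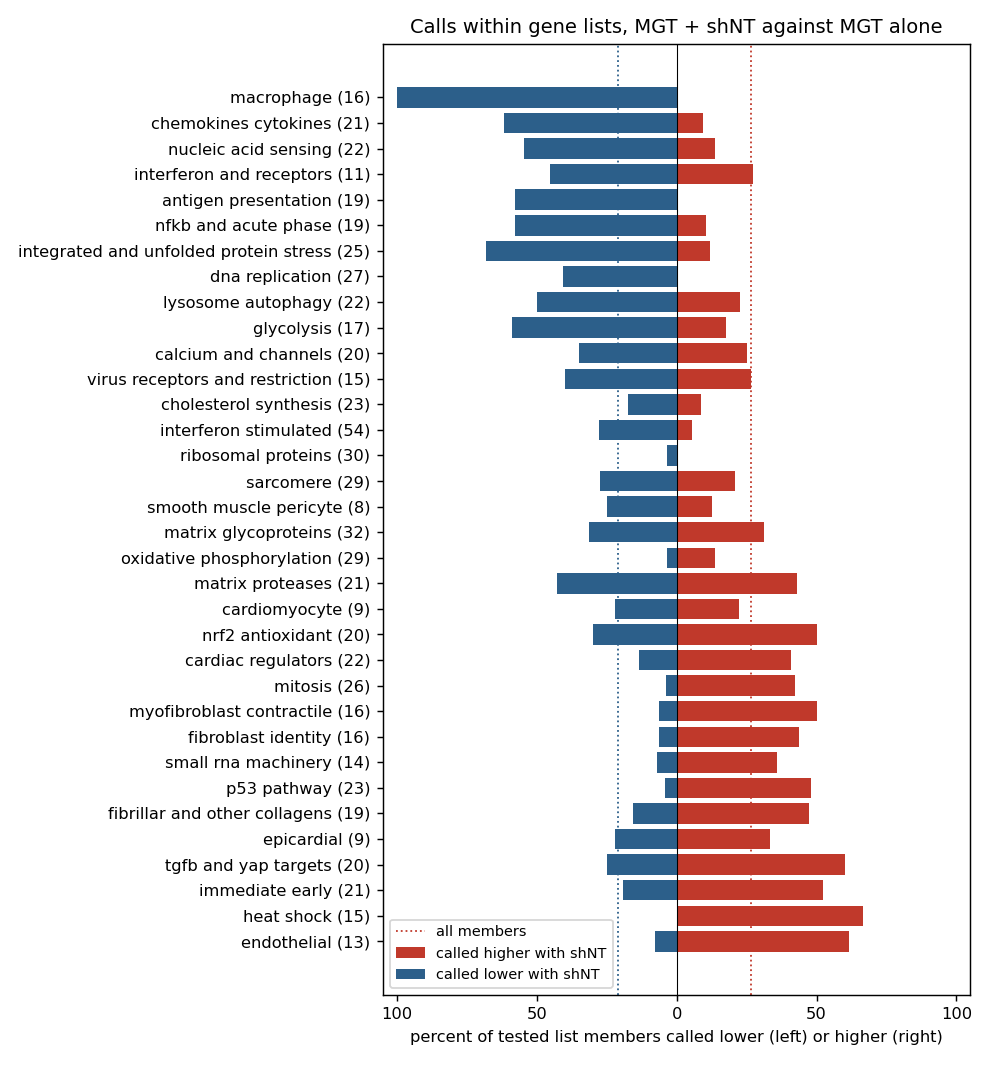
Percent of the tested genes of each list called lower (bars to the left) or higher (bars to the right) with MGT + shNT against MGT alone (horizontal axis), for the 34 lists with at least 5 tested genes, ordered by median change, with the number tested in brackets. The dotted lines mark the shares over all genes, 21% lower and 26.4% higher; the macrophage bar reaches 100% on the left, and the heat shock list has no bar on that side.

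Of 15 receptors and restriction factors, which viruses use or are blocked by, 4 rose and 6 fell (66.7% called, beside 47.4% of all genes), and none reached 2-fold. Without the second shNT or the second MGT library 3 fell, and without the first MGT library 2 fell. Mov10, an RNA helicase that hinders retroviruses, read 79.02 and 75.3 scaled CPM with shNT, against 53.8 and 54.1 with MGT alone (log2 fold change 0.51 ± 0.055 SE, limma adjusted p = 2.99e-07), the largest change of the list. Samhd1, which depletes nucleotides, read 82.1 and 80.5 scaled CPM with shNT, against 94.9 and 97.9 with MGT alone (log2 fold change -0.24 ± 0.042 SE, limma adjusted p = 9.04e-05). Of 14 genes of small RNA processing, the machinery of RNA interference, 5 rose and 1 fell, 42.9% called and near the share of all genes; 3 rose without the first shNT or the first MGT library. By direction 35.7% of the 14 genes rose and 7.14% fell, beside 26.4% and 21% of all genes. Tnrc6c and Tnrc6b, partners of Argonaute in silencing, rose by 0.43 and 0.38 log2 units. Dicer1, the enzyme that cuts hairpins into short RNAs, read 89.4 and 85.8 scaled CPM with shNT, against 74.3 and 79.99 with MGT alone (log2 fold change 0.18 ± 0.042 SE, limma adjusted p = 0.00168). Eif2c4, the older name of Argonaute Ago4, read 12.02 and 11.3 scaled CPM with shNT, against 9.22 and 10.4 with MGT alone (log2 fold change 0.24 ± 0.077 SE, limma adjusted p = 0.0174). The calls of both were lost without the first MGT library (adjusted p = 0.0504 and 0.207), and that of Eif2c4 also without the first shNT library (0.133) and in the fit of the 4 libraries alone (0.0536).

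The 3 delivered factors were all lower with shNT. Mef2c read 479 and 473 scaled CPM with shNT, against 724 and 766 with MGT alone, a 1.56-fold lower level (log2 fold change -0.65 ± 0.039 SE, limma adjusted p = 8.58e-11). Tbx5 read 1569.7 and 1551 scaled CPM with shNT, against 1779 and 1859 with MGT alone (log2 fold change -0.22 ± 0.05 SE, limma adjusted p = 0.00133). Gata4 read 648 and 629.6 scaled CPM with shNT, against 687 and 705 with MGT alone (log2 fold change -0.12 ± 0.04 SE, limma adjusted p = 0.0176), and its call was lost without the second shNT library (adjusted p = 0.132), without the second MGT library (0.122), in the fit of the 8 day 3 libraries (0.0626) and with no filter on low values (0.0529). The groups did not overlap for any of the 3, as they did not for 74.9% of all genes. All 3 factors read lower still in control vector, Mef2c at 315 and 332, Tbx5 at 648 and 681 and Gata4 at 343 and 377. Gene counts do not separate transcripts of the virus from those of the cells' own genes. Mef2c is also expressed by macrophages, whose markers moved beside it with the sums given above, and their part was not tested.

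Of the 29 sarcomere genes 6 were higher and 8 lower, with 15 not called and a median of -0.02 log2 units. The 48.3% called is near the 47.4% of all genes. The cardiac actin Actc1 read 135 and 136 scaled CPM with shNT, against 227 and 233 with MGT alone (log2 fold change -0.76 ± 0.046 SE, limma adjusted p = 9.49e-11). The intercalated disc protein Xirp2 read 5.93 and 5.74 scaled CPM with shNT, against 2.71 and 2.53 with MGT alone (log2 fold change 1.02 ± 0.15 SE, limma adjusted p = 2.19e-05), and it was low with shPtbp1, at 1.41 and 0.678. Tcap, a titin cap protein, read 0.975 and 1.01 scaled CPM with shNT, against 2.36 and 1.85 with MGT alone. The skeletal actin Acta1 read 1.58 and 1.88 scaled CPM with shNT, against 0.829 and 0.785 with MGT alone, and both genes were called but lie close to the limit on low values. The troponin T gene Tnnt2 read 3186 and 3468 scaled CPM with shNT, against 3076 and 3262 with MGT alone and did not pass the test (log2 fold change 0.07 ± 0.059 SE, limma adjusted p = 0.37). The cardiac myosin Myh6 read 63.3 and 65.6 scaled CPM with shNT, against 66.1 and 65.05 with MGT alone and did not pass either (limma adjusted p = 0.657). Both were named after their values had been seen. Of the 9 cardiomyocyte markers tested 2 rose and 2 fell (44.4% called, near the share of all genes), and 0 rose without the first shNT or the first MGT library. Of 20 calcium handling and channel genes 5 rose and 7 fell, and leaving out 1 library gave 2 or 3 that rose, whichever it was. The pacemaker channel Hcn4 read 0.355 and 0.161 scaled CPM with shNT, against 1.47 and 1.52 with MGT alone. Phospholamban, Pln, which restrains the calcium pump, read 1.05 and 1.33 scaled CPM with shNT, against 2.68 and 2.29 with MGT alone. Both were called lower, at low levels. Over the calcium and channel list 25% rose and 35% fell, beside 26.4% and 21% of all genes.

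Of 22 cardiac regulators and related genes 9 rose (40.9%) and 3 fell (13.6%), beside 26.4% and 21% of all genes. Mb, myoglobin, which stores oxygen in muscle, read 7.499 and 6.67 scaled CPM with shNT, against 19.9 and 20.1 with MGT alone, a 2.71-fold lower level (log2 fold change -1.44 ± 0.062 SE, limma adjusted p = 5.68e-13). With shPtbp1 it read 19.4 and 20.1, close to the MGT libraries, and in control vector 6.65 and 5.89, close to the shNT libraries. Desmin, Des, a muscle intermediate filament, read 648 and 681 scaled CPM with shNT, against 839 and 857 with MGT alone (log2 fold change -0.35 ± 0.042 SE, limma adjusted p = 1.44e-06). The cardiac transcription factor Hand2 was higher by 0.42 and Prdm16 by 0.48 log2 units. Some skeletal muscle genes, chosen after their values had been seen, were called lower too, whereas the skeletal actin Acta1, described above, was called higher. The perinatal myosin Myh8 read 3.03 and 3.43 scaled CPM with shNT, against 18.1 and 18.1 with MGT alone. The fast myosin Myh2 read 3.57 and 2.79 scaled CPM with shNT, against 9.75 and 11.2 with MGT alone. The myosin-binding protein Mybph read 0.206 and 0.219 scaled CPM with shNT, against 3.29 and 3.32 with MGT alone. Myosin heavy chain genes are close copies, so the split of reads between them is uncertain.

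Fewer genes were at least 2-fold higher, 37, than at least 2-fold lower, 441. Smpd3, a neutral sphingomyelinase, read 15.03 and 13.4 scaled CPM with shNT, against 3.35 and 3.59 with MGT alone, a 3.71-fold higher level (log2 fold change 1.89 ± 0.092 SE, limma adjusted p = 3.60e-12). Lrrn4, a membrane protein of mesothelial cells, read 28.5 and 26.7 scaled CPM with shNT, against 9.16 and 9.32 with MGT alone (log2 fold change 1.53 ± 0.066 SE, limma adjusted p = 6.09e-13). Egr1, an immediate-early transcription factor, read 257 and 233 scaled CPM with shNT, against 90.2 and 96.3 with MGT alone (log2 fold change 1.39 ± 0.044 SE, limma adjusted p = 5.28e-15). Large rises without overlap are what the naming rule selects, so the separation of these genes is no further result. Slc7a11, the cystine importer, read 29.6 and 29.03 scaled CPM with shNT, against 10.3 and 12.3 with MGT alone (log2 fold change 1.34 ± 0.091 SE, limma adjusted p = 5.20e-10). Itga11, a collagen-binding integrin chain, read 51.1 and 50.1 scaled CPM with shNT, against 20.96 and 23.9 with MGT alone (log2 fold change 1.16 ± 0.084 SE, limma adjusted p = 1.28e-09). The other 10 named increases were between 2.02-fold and 2.21-fold: the endothelial sialomucin Emcn, the imprinted gene Mest, the splicing factor Mbnl3, the collagen Col27a1, the keratin Krt7, the zinc finger gene Zfp949, the microtubule protein Map2, the receptor phosphatase Ptprz1, the BMP inhibitor Smad6 and the matrix protein Sparcl1.

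For 10 of the 15 named increases both control vector libraries lay between those of MGT alone and those of shNT, and for the other 5 they lay below MGT alone. Smpd3 was 7.73 and 6.79 with shPtbp1 and 9.99 and 12.03 in control vector, so the MGT libraries were the lowest of the day 3 groups. Lrrn4 (20.4 and 22.3 in control vector), Krt7 (9.77 and 9.72), Map2 (19.5 and 20.4) and Ptprz1 (63.7 and 78.4) had the same place for control vector. These 5 genes were called lower with shPtbp1 than in control vector, with a log2 fold change of -0.37 for Krt7 and -0.49 for Ptprz1. Control vector also lay between for Slc7a11 (15.1 and 16.8), Itga11 (38.7 and 40.1), Emcn (15.5 and 17.9), Col27a1 (12.02 and 13.2) and Smad6 (48.02 and 53.9). Of these, Slc7a11, Emcn, Col27a1 and Smad6 were called higher with shPtbp1 than in control vector, and Itga11 was not called. The 5 genes with control vector below MGT alone were Egr1, Mest, Mbnl3, Zfp949 and Sparcl1, all called higher with shPtbp1 than in control vector. For Egr1, Mest, Zfp949 and Sparcl1 the 2 groups with a lentivirus were both high. For Mbnl3 the shPtbp1 libraries, at 12.9 and 11.3, lay between those of shNT and MGT alone. Zfp949 read 20.5 and 22.2 with shNT, 19.5 and 17.7 with shPtbp1, 10.02 and 9.98 with MGT alone and 9.11 and 8.99 in control vector. Egr1 read 296 and 308 with shPtbp1 and 61.4 and 62.6 in control vector. Mest read 131 and 129.9 with shNT, 126 and 139 with shPtbp1, 57.6 and 62.3 with MGT alone and 41.6 and 47.3 in control vector. Sparcl1 read 126 and 123 with shNT, 113 and 122 with shPtbp1, 61.1 and 61.4 with MGT alone and 36.9 and 33.4 in control vector.

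**Figure D5:**
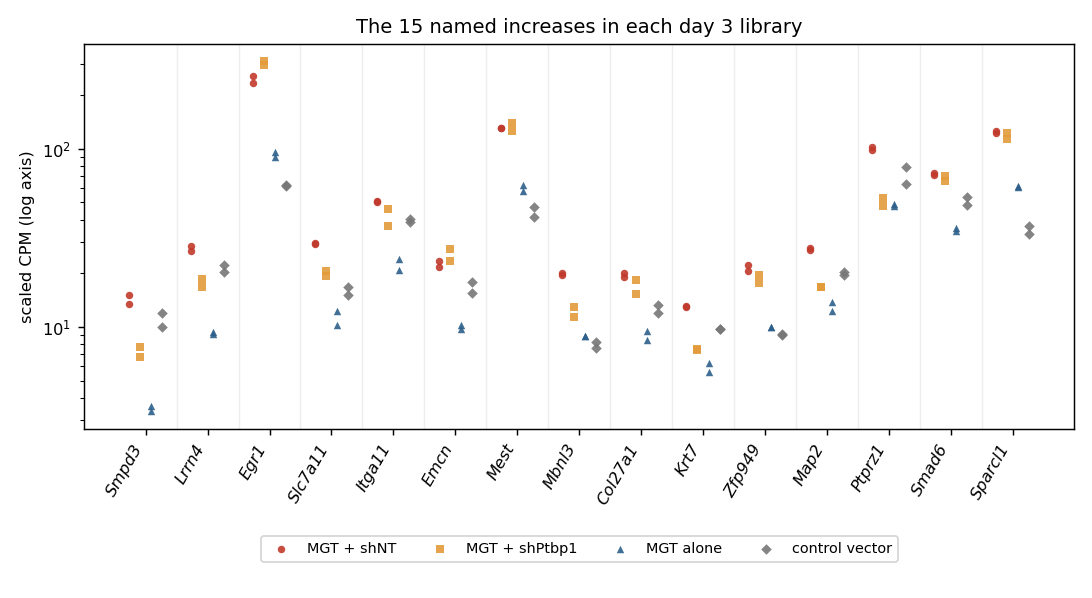
Scaled CPM (vertical log axis) of the 15 named increases (horizontal axis, ordered by their change with shNT) in each day 3 library, 1 point per library, with circles for MGT + shNT, squares for MGT + shPtbp1, triangles for MGT alone and diamonds for control vector. The circles lie above the triangles for all 15 genes, as the rule that named them requires. The control diamonds lie above the triangles and below the circles for 10 of the 15 and below the triangles for Egr1, Mest, Mbnl3, Zfp949 and Sparcl1.

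Markers of endothelial cells were mostly higher with shNT. Of 13 tested 8 rose (61.5%, beside 26.4% of all genes), 1 fell (7.69%, beside 21%) and 4 did not pass, with a median of 0.31 log2 units. The summed level of the 13 was 670 and 660.1 scaled CPM with shNT and 542 and 579 with MGT alone. Emcn read 23.3 and 21.8 scaled CPM with shNT, against 9.67 and 10.2 with MGT alone (log2 fold change 1.14 ± 0.069 SE, limma adjusted p = 8.18e-11). Pecam1, the junction protein CD31, read 16.6 and 15.96 scaled CPM with shNT, against 9.97 and 9.79 with MGT alone (log2 fold change 0.69 ± 0.047 SE, limma adjusted p = 5.02e-10). Tie1, an orphan receptor of endothelium, read 8.31 and 6.93 scaled CPM with shNT, against 4.25 and 4.95 with MGT alone (log2 fold change 0.67 ± 0.072 SE, limma adjusted p = 3.46e-07). Vwf, von Willebrand factor, was the exception and read 9.33 and 8.51 scaled CPM with shNT, against 26.1 and 27.3 with MGT alone, a 2.89-fold lower level (log2 fold change -1.53 ± 0.049 SE, limma adjusted p = 6.14e-15). It was low with shPtbp1 too, at 7.12 and 7.496. The 13 endothelial markers summed to 605 and 633 scaled CPM in control vector, between MGT alone and shNT, and to 636 and 639 with shPtbp1. With shPtbp1 against control vector 4 of them were called higher and 2 lower, with a median of 0.06 log2 units. Of all genes there, 32.7% were called higher and 29.3% lower. Of 9 epicardial and mesothelial markers 3 rose and 2 fell (33.3% and 22.2%, near the 26.4% and 21% of all genes). Upk3b, a uroplakin, read 38.4 and 38.5 scaled CPM with shNT, against 20.8 and 20.8 with MGT alone, and Krt19, a keratin, read 3.54 and 3.38 scaled CPM with shNT, against 4.54 and 5.23 with MGT alone. Of 8 smooth muscle and pericyte markers 1 rose and 2 fell (12.5% and 25%, beside 26.4% and 21% of all genes). The largest change of these 8 was in the channel subunit Abcc9 (1.85 and 1.696 scaled CPM with shNT, against 3.85 and 3.31 with MGT alone). Of 2 glial markers tested 1, Mbp, fell by 0.34 log2 units, and none of the red cell markers passed the limit on low values.

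Of 19 collagens 9 rose (47.4%) and 3 fell (15.8%), beside 26.4% and 21% of all genes. Col10a1, a short-chain collagen, read 22.005 and 22.7 scaled CPM with shNT, against 36.5 and 37.5 with MGT alone (log2 fold change -0.71 ± 0.1 SE, limma adjusted p = 9.66e-06). Col12a1, which decorates fibrils, read 674 and 645 scaled CPM with shNT, against 991 and 1048 with MGT alone (log2 fold change -0.63 ± 0.054 SE, limma adjusted p = 1.46e-08). Col11a1 and Col14a1 rose by 0.43 and 0.35 log2 units. Of 32 matrix glycoproteins 10 rose and 10 fell, 31.2% each way and not far from the shares of all genes. Periostin, Postn, a product of activated fibroblasts, read 3132 and 3098 scaled CPM with shNT, against 1879 and 1939 with MGT alone (log2 fold change 0.71 ± 0.048 SE, limma adjusted p = 5.50e-10). Asporin, Aspn, read 41.6 and 43.001 scaled CPM with shNT, against 20.5 and 21.7 with MGT alone (log2 fold change 0.98 ± 0.056 SE, limma adjusted p = 3.46e-11). Osteopontin, Spp1, read 549.6 and 554 scaled CPM with shNT, against 1043 and 992 with MGT alone (log2 fold change -0.88 ± 0.06 SE, limma adjusted p = 5.40e-10). Igfbp5 read 201 and 194 scaled CPM with shNT, against 397 and 399 with MGT alone (log2 fold change -1.01 ± 0.034 SE, limma adjusted p = 1.34e-14). Spp1 is made by macrophages as well as fibroblasts. The macrophage markers moved beside it with the sums given above, and their part was not tested.

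Of 21 matrix proteases and their inhibitors 9 rose and 9 fell, 42.9% each way, beside 26.4% and 21% of all genes. The urokinase gene Plau, which activates plasminogen, read 64.2 and 60.8 scaled CPM with shNT, against 209 and 205 with MGT alone, a 3.296-fold lower level (log2 fold change -1.72 ± 0.04 SE, limma adjusted p = 9.97e-17). Its receptor Plaur read 22.2 and 21.9 scaled CPM with shNT, against 36.5 and 37.7 with MGT alone (log2 fold change -0.74 ± 0.047 SE, limma adjusted p = 1.83e-10). The collagenase Mmp13 read 3.497 and 2.58 scaled CPM with shNT, against 8.1997 and 8.17 with MGT alone. Stromelysin, Mmp3, read 15.7 and 14.2 scaled CPM with shNT, against 32.3 and 28.7 with MGT alone. Both were called lower. Plau read 61.9 and 60.7 with shPtbp1 and 206 and 222 in control vector, so it was low in both groups with a lentivirus. The macrophage markers moved beside these proteases with the sums given above, and their part was not tested. For Mmp3 the shPtbp1 libraries, at 28.9 and 30.3, were close to the MGT libraries. Contractile genes of myofibroblasts were higher in 8 of 16 (50%) and lower in 1 (6.25%), desmin, with rises of 0.32 for Synpo2 and 0.31 for smoothelin Smtn. Of 20 targets and members of the TGF-beta and YAP pathways 12 rose (60%) and 5 fell (25%). Among them Id1 (0.59) and the feedback inhibitor Smad7 (0.52) were higher and Id2 (-0.86) and Tgfbi (-0.65) lower.

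Among stress and growth genes, more immediate-early and heat shock genes were higher than lower with shNT, and more genes of the integrated stress and unfolded protein responses were lower than higher. Immediate-early genes rose in 11 of 21 (52.4%, beside 26.4% of all genes) and fell in 4 (19%, near the 21% of all genes). Among the immediate-early genes Egr1, described above, changed most (1.39 log2 units). Ier2 read 43.8 and 42.4 scaled CPM with shNT, against 26.01 and 25.9 with MGT alone. Fos, the partner of Jun in AP-1, read 14.99 and 13.4 scaled CPM with shNT, against 9.35 and 9.51 with MGT alone. Klf4 read 24.7 and 21.7 scaled CPM with shNT, against 35.7 and 33.8 with MGT alone and was among those that fell. Heat shock genes rose in 10 of 15 (66.7%, beside 26.4% of all genes) and fell in 0. The inducible chaperones Hspa1a and Hspa1b, near-identical copies whose reads cannot be assigned with certainty, changed by 0.78 and 0.73 log2 units. Hspa1a read 14.1 and 12.3 scaled CPM with shNT, against 8.03 and 6.95 with MGT alone. Genes of the p53 pathway rose in 11 of 23 (47.8%) and fell in 1 (4.35%), beside 26.4% and 21% of all genes. Mdm2, the p53 ubiquitin ligase and target, read 165 and 164 scaled CPM with shNT, against 121 and 119 with MGT alone (log2 fold change 0.45 ± 0.035 SE, limma adjusted p = 3.84e-09). Gdf15, a secreted stress factor, read 10.8 and 9.48 scaled CPM with shNT, against 7.87 and 6.73 with MGT alone (log2 fold change 0.45 ± 0.1 SE, limma adjusted p = 0.00156). Sesn1 fell to 30.7 and 29.2 with shNT, against 45.5 and 44.3 with MGT alone. In the integrated stress and unfolded protein responses 17 of 25 genes were lower (68%) and 3 higher (12%), beside 21% and 26.4% of all genes. Trib3, a pseudokinase induced by the integrated stress response, read 26.1 and 24.03 scaled CPM with shNT, against 46.1 and 41.4 with MGT alone (log2 fold change -0.79 ± 0.076 SE, limma adjusted p = 7.50e-08). Psat1, of serine synthesis, read 70.8 and 68.4 scaled CPM with shNT, against 100.4 and 99.5 with MGT alone (log2 fold change -0.52 ± 0.043 SE, limma adjusted p = 8.80e-09). Slc7a11, higher by 1.34 log2 units, was among the 3 that rose. Of 20 antioxidant genes of the NRF2 response 10 rose (50%) and 6 fell (30%), beside 26.4% and 21% of all genes. Srxn1 was higher by 0.57 and Gsta3 by 1.44 log2 units, while Gsta1 changed by -0.85. The glutathione transferases are close copies of each other.

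Of 27 DNA replication genes 11 fell (40.7%, beside 21% of all genes) and 0 rose, with a median of -0.11 log2 units, and 7 fell without the first MGT library. Cdt1, which licenses origins, read 10.3 and 11.2 scaled CPM with shNT, against 19.6 and 17.7 with MGT alone (log2 fold change -0.77 ± 0.078 SE, limma adjusted p = 1.46e-07). Pcna, the sliding clamp, read 84.2 and 87.1 scaled CPM with shNT, against 112 and 112 with MGT alone (log2 fold change -0.38 ± 0.04 SE, limma adjusted p = 2.61e-07). Of 26 mitosis genes 11 rose (42.3%, beside 26.4% of all genes) and 1 fell, with a median of 0.10, and 7 rose without the second shNT or the first MGT library and 6 without the second MGT library. Prc1, which bundles spindle microtubules, read 89.4 and 90.4 scaled CPM with shNT, against 70.4 and 72.2 with MGT alone (log2 fold change 0.33 ± 0.039 SE, limma adjusted p = 9.75e-07). In the comparison of shPtbp1 with control vector 25 of the 27 replication genes and 19 of the 26 mitosis genes were called lower (92.6% and 73.1%, beside 29.3% of all genes there), with medians of -0.42 and -0.23.

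Of 17 glycolysis genes 10 were lower and 3 higher (76.5% called), with a median of -0.10 log2 units, and leaving out 1 library gave 5 or 6 that were lower, whichever it was. By direction 58.8% were lower and 17.6% higher. For comparison with this and the next lists, 21% of all genes were lower and 26.4% higher, 47.4% called. Pdk1, a brake on pyruvate oxidation, read 14.4 and 14.4 scaled CPM with shNT, against 21.9 and 20.98 with MGT alone. The phosphofructokinase Pfkp read 205 and 203 scaled CPM with shNT, against 149 and 151 with MGT alone. Oxidative phosphorylation genes rose in 4 of 29 and fell in 1 (17.2% called), and 1 rose without the second shNT or the second MGT library. By direction 13.8% of the oxidative phosphorylation genes rose and 3.45% fell, both below the shares of all genes. Their largest change was in Ndufa1, at 60.8 and 61.3 scaled CPM with shNT, against 48.4 and 53.1 with MGT alone (log2 fold change 0.27 ± 0.057 SE, limma adjusted p = 8.42e-04). Of 23 cholesterol synthesis genes 2 rose and 4 fell (26.1% called), and 2 fell without the second shNT or the second MGT library and 1 without the first MGT library. By direction 8.7% of the cholesterol genes rose and 17.4% fell, again below the shares of all genes. Dhcr7, of the last step, read 18.5 and 17.4 scaled CPM with shNT, against 22.2 and 21.5 with MGT alone. Of 30 ribosomal protein genes 1 was called, beside 47.4% of all genes.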

How the data were processed

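Polyadenylated RNA was measured in 12 libraries from a stranded library kit, which the titles put in 6 groups of 2. The control titles name lacZ where other labels name an empty vector, and a source label of 1 shPtbp1 library names Ptbp2, so its title set the group. The authors deposited CPM for 23423 genes in 1 table, whose 12 columns carry the samples' names. The submitters' processing notes list FastQC, TopHat2 2.1.0, HTSeq 0.6.1p1 and the mm10 build. Annotation and strand setting are not given in those sources, so a gene and an overlapping or antisense neighbour may share reads. For 100% of values the deposited CPM were multiples of 1 read (tolerance 0.1 read), which gave back the reads per library. In 25 rows the gene name had turned into a number, and these were not named.

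Each library's CPM were scaled by median-of-ratios factors. The fit was made with limma 3.58.1 (R 4.3.3) on log2(scaled CPM + 0.5), using all 12 libraries with a mean for each group and a trended eBayes prior, which left 6 residual degrees of freedom. Tests were two-sided. P-values were adjusted after Benjamini-Hochberg over the 13977 genes that reached 1 CPM in 2 or more of the 12 libraries, and calls were counted over the 12698 genes of the comparison. No permutation test was run, since the smallest p it could give with 2 libraries a group is 0.333.

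The text names 15 increases and 15 decreases, those with the largest fold change among called genes whose replicates did not overlap, whose higher group averaged 10 scaled CPM or more and whose name is not a predicted or numbered one. It also names up to 4 genes with the largest change from each of 38 lists, and Ptbp1, Ptbp2, Mef2c, Gata4 and Tbx5. Some genes that this rule would name are not reported here. The genes compared and the lists were chosen with earlier results of these data known. Genes named beyond the rule are marked. Exceptions are those of the label checks, those at or below the limit on low values, and the macrophage markers, which are given as a whole list. Of the list symbols, 9 were matched through RefSeq synonyms and 3 are not in the table. Upstream sequences come from RefSeq on GRCm38.p6. The tests were checked on simulated data. The alternatives were other scalings, pseudocounts and filters, fits of fewer libraries, a robust prior, a replicate block, each replicate left out, and the quasi-likelihood test of edgeR 4.0.16 on recovered reads. Figures were drawn with matplotlib 3.10.9.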

Additional observations from a re-analysis of the deposited data

How the results depend on the processing

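The count of genes at least 2-fold higher with shNT, 37, moved most: it was 64 with a pseudocount of 0.1, 11 with a pseudocount of 2 and 67 with edgeR on the recovered reads. The pseudocount changes the fold of low genes by construction, and for edgeR the cause was not tested. The other counts over all genes stayed within 1.5 times under every alternative run. Of 74 counts of list members called in 1 direction, 28 moved by over 1.5 times in at least 1 alternative, 23 of them counts of 5 or fewer; calcium handling and channel genes called higher, 5, came to between 2 and 6, and cardiomyocyte markers called higher, 2, to between 0 and 2. Leaving out 1 of the 4 libraries at a time gave 2441 to 2690 genes higher, 2206 to 2272 lower, 35 to 40 at least 2-fold higher, 438 to 457 at least 2-fold lower, and 3429 to 3810 genes with a shared sign in shPtbp1 against control vector, where 4451 of the 6018 called genes shared it; the lone library was then assumed to vary like the other groups. The share of calls that were higher ran from 48.1% with TMM scaling to 60.2% with quantile normalization, against 55.7%. Of 157 named genes, 143 kept their direction and their side of the threshold in all 18 alternatives and 0 changed sign; 14 lost their call in at least 1, among them Gata4, Ptbp2, Dicer1 and Eif2c4, and the cause was not tested. The deviations of same-numbered shNT and MGT libraries correlated at 0.015, and all pairs of groups at -0.135 to 0.161. Such weak correlations cannot decide whether same-numbered libraries shared a culture or batch. With the replicate block 3304 genes were higher, 2621 lower, 441 at least 2-fold lower and 37 at least 2-fold higher. The fit of the 4 libraries alone gives no value for shPtbp1 against control vector, since those groups are not in it. With 2 libraries a group, small changes near the threshold are the least certain.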
